A study of Mus musculus with 6 samples.

Results

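The mitochondrial chromosome of the mouse carries its own small set of genes, and the expression tables listed 37 of them among 50383 gene IDs. They were chosen by name, as every gene whose symbol begins with mt-, a rule that uses the symbol alone. There were 13 genes for proteins, 2 for ribosomal RNA and 22 for transfer RNA. Their levels were followed over 6 RNA-seq libraries of the lateral amygdala, a region of the temporal lobe needed for fear memory.

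The tissue came from male mice of a 129xC57BL/6 hybrid strain, 2 to 3 months old. The labels named 3 groups with 2 libraries in each: control, scrambled siRNA (a small interfering RNA with a shuffled sequence) and Baf53b siRNA, which is directed against the transcript of Actl6b, the gene of the neuron-specific chromatin remodelling subunit BAF53b. The series' text places the siRNA injection 1 day after training, and its title speaks of a knockdown of BAF53b in the amygdala. The labels give tissue of 4 mice in the RNA protocol, and do not say whether each library pooled 4 animals, what was injected into the control mice, or what the replicate number marks.

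Mammalian mitochondria transcribe both strands of their circular DNA as long precursors, and the transfer RNAs that lie between the other genes mark the places where the precursors are cut. The 13 proteins are all subunits of oxidative phosphorylation, the process that supplies most of the ATP of neurons, and each works in a complex together with subunits encoded in the nucleus. The ribosomal and transfer RNAs serve the translation of these proteins inside the organelle. Most mitochondrial messenger and ribosomal RNAs carry short poly(A) tails, which is how they can enter a library that selects RNA with oligo-dT, as the labels describe here.

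The gene order was that of the build mm10, and all 37 coordinates in the tables were identical to those of GENCODE M21. Of the 13 protein genes, 12 lie on the plus strand and mt-Nd6 lies on the minus strand. The base composition followed the strand: 28.1% of the bases of mt-Nd6 were G, against 5.9% to 16.1% in the 12 plus-strand protein genes. As annotated, 10 protein genes end in a complete stop codon, while mt-Co3, mt-Nd4 and mt-Cytb end in a lone T that polyadenylation is known to complete to a stop codon. Of the 13, 9 begin with ATG.

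Genes on this chromosome are packed so closely that some share bases. Shown first are the 2 short protein genes whose ends lie inside the next gene, because both stood apart in the measurements that follow. The capitals mark the bases of mt-Atp8 that are also the start of mt-Atp6 (chrM:7766-7969, plus strand), and those of mt-Nd4l that are also the start of mt-Nd4 (chrM:9877-10173, plus strand). All gene sequences printed here are transcript sequences of GENCODE M21, on mm10.
mt-Atp8: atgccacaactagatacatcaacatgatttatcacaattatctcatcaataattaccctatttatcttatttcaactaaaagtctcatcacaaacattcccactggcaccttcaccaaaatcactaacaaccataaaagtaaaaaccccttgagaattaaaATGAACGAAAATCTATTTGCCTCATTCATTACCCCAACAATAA
mt-Nd4l: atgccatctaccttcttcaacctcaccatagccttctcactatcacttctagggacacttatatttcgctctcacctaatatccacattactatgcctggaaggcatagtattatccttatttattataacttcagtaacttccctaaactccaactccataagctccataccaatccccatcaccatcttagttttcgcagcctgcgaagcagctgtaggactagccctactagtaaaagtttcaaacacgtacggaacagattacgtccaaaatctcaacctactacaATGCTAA

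The shared stretch was 43 of 204 bases in mt-Atp8 and 7 of 297 bases in mt-Nd4l. Other overlaps were 14 bases between mt-Nd5 and mt-Nd6 on opposite strands, and 1 to 3 bases at the ends of mt-Nd1, mt-Nd2, mt-Co1 and mt-Co3. In all, 10 of the 15 ribosomal RNA and protein genes overlapped another gene and 5 did not (mt-Rnr1, mt-Rnr2, mt-Co2, mt-Nd3 and mt-Cytb).

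Before the mitochondrial genes were compared, the siRNA target was checked against the labels. Actl6b stood at 42.9 and 44.1 FPKM in control, 43.8 and 43.9 with scrambled siRNA, and 42.8 and 39.6 in Baf53b siRNA (fragments per kilobase of transcript and per 1 M fragments, replicate 1 and then replicate 2, the order used throughout). Baf53b siRNA minus scrambled siRNA came to -0.09 on the log2 scale (SE 0.12, adjusted p = 1 by limma), so the transcript was not measurably lower, and the group is called the libraries labelled Baf53b siRNA. Of 15 neuron markers, 14 were found in the tables, none at 0, with a summed level between 3360.0 and 3987 FPKM per library. The lowest sum was in replicate 2 labelled Baf53b siRNA. In Baf53b siRNA minus scrambled siRNA all 14 were lower (median log2 difference -0.07, against 0.003 over all genes). Against control 2 were higher and 12 lower (median -0.06, against 0.04). In scrambled siRNA minus control 8 were higher and 6 lower. None was called in these comparisons. Microglia markers, of which all 12 were found and none was at 0, differed between groups: their summed FPKM was 365 and 359 in control, 646 and 637 with scrambled siRNA, and 1166 and 958.5 in the libraries labelled Baf53b siRNA, with 9 of 12 called higher against control (1.23% of all genes were called in that comparison). In the other 2 comparisons between groups 0 of 12 were called, with all 12 higher. Over all genes, 0.123% were called in Baf53b siRNA minus scrambled siRNA and 0% in scrambled siRNA minus control. In such bulk tissue, fewer cells of a type and less RNA per cell cannot be told apart.

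All 22 transfer RNA genes, which are 59 to 75 bases long, were listed at 0 FPKM in all 6 libraries. The genes that could be described further were therefore 15. A few transfer RNAs are printed for their places, chosen after the zeros were seen: mt-Tv (chrM:1025-1093) lies between the 2 ribosomal RNA genes, mt-Tl1 (chrM:2676-2750) between mt-Rnr2 and mt-Nd1, and mt-Tk (chrM:7700-7764) between mt-Co2 and mt-Atp8. All lie on the plus strand and directly beside, or a few bases from, neighbours with levels among the highest in the tables. They deliver valine, leucine and lysine to the mitochondrial ribosome.
mt-Tv: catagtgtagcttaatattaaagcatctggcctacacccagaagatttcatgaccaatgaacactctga
mt-Tl1: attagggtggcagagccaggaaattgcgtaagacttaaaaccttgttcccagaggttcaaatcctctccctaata
mt-Tk: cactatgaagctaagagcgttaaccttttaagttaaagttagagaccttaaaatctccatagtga

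The ribosomal RNA genes lie ahead of all protein genes in the order of coordinates, and they were among the less abundant. mt-Rnr1, the RNA of the small mitochondrial ribosomal subunit (chrM:70-1024), stood at 3281 and 7079 FPKM in control, 3909.8 and 5512 with scrambled siRNA, and 3973 and 4648 in the libraries labelled Baf53b siRNA. mt-Rnr2, the RNA of the large subunit (chrM:1094-2675), stood at 3034 and 5971, 3032 and 5072, and 3487 and 4169 FPKM. In both genes the replicate 2 library was higher than the replicate 1 library in every group, and the 3 replicate 2 libraries all lay above the 3 replicate 1 libraries. The 3 groups overlapped.

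Complex I, the NADH dehydrogenase that feeds electrons into the chain, takes 7 mitochondrial subunits. mt-Nd1 stood at 6756 and 10906 FPKM in control, 6124 and 8773 with scrambled siRNA, and 7265 and 6943 in the libraries labelled Baf53b siRNA. mt-Nd2, whose subunit sits in the membrane arm, stood at 4467 and 7233, 3489 and 6061, and 4368 and 4945 FPKM. Control replicate 2 was the highest library and scrambled siRNA replicate 1 the lowest for both genes. mt-Nd3 was among the 3 least abundant genes, at 2751 and 4669, 1991 and 3531, and 2956 and 2967 FPKM. The pair labelled Baf53b siRNA differed by little here, with a mean of 2961 FPKM and an SD of 7.71 (n = 2), against an SD of 1356 in control and 1089 in scrambled siRNA. mt-Nd4l stood at 5648 and 7844, 5930.1 and 6202, and 6560 and 5023 FPKM, and it varied least of the 15 genes over the 6 libraries (coefficient of variation 15.5%). Unlike the other 14 genes, mt-Nd4l had its lowest library in a replicate 2 sample, the one labelled Baf53b siRNA. mt-Nd4 stood at 3952 and 6314, 3516 and 5209.7, and 3975 and 4260.3 FPKM, and mt-Nd5, the longest of the protein genes with 1824 bases, at 2813 and 4207, 2574 and 3551, and 2811 and 3003 FPKM. mt-Nd6, the subunit gene on the other strand, stood at 2535 and 4816, 2425 and 3667, and 2755 and 3084 FPKM. All 3 genes were higher in each replicate 2 library than in any replicate 1 library.

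Complex III passes electrons from ubiquinol to cytochrome c and takes cytochrome b as its sole mitochondrial subunit. mt-Cytb (chrM:14145-15288) stood at 8321 and 13754 FPKM in control, 8730.3 and 10944 with scrambled siRNA, and 9309 and 8905 in the libraries labelled Baf53b siRNA. Complex IV, cytochrome c oxidase, takes its catalytic core from mt-Co1, mt-Co2 and mt-Co3. mt-Co1 (chrM:5328-6872) stood at 13615 and 21265 FPKM, 14673 and 17576, and 15534 and 14535 FPKM. mt-Co2 stood at 8289.5 and 13421, 8251 and 11145, and 9447 and 9242 FPKM. mt-Co3 stood at 7139 and 11059, 7460.1 and 9598, and 8114 and 7979.7 FPKM. For each of these 4 genes replicate 2 was the higher library in control and in scrambled siRNA and the lower one in the pair labelled Baf53b siRNA.

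Complex V, the ATP synthase, takes 2 mitochondrial subunits of its proton channel side. mt-Atp6 stood at 6331 and 11679 FPKM in control, 5365 and 9224 with scrambled siRNA, and 6806 and 7476 in the libraries labelled Baf53b siRNA. mt-Atp8 stood far above its overlapping neighbour, at 39684 and 59791 FPKM in control, 14151 and 67507 with scrambled siRNA, and 35104 and 57134 in the libraries labelled Baf53b siRNA. It was the most variable of the 15 genes, with a coefficient of variation of 43.3% over the 6 libraries. The mean was 40829 FPKM with an SD of 37728 in scrambled siRNA (n = 2), so that group alone spanned all the other libraries. The library scrambled siRNA replicate 1 stood apart at less than each of the others.

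**Figure D1:**
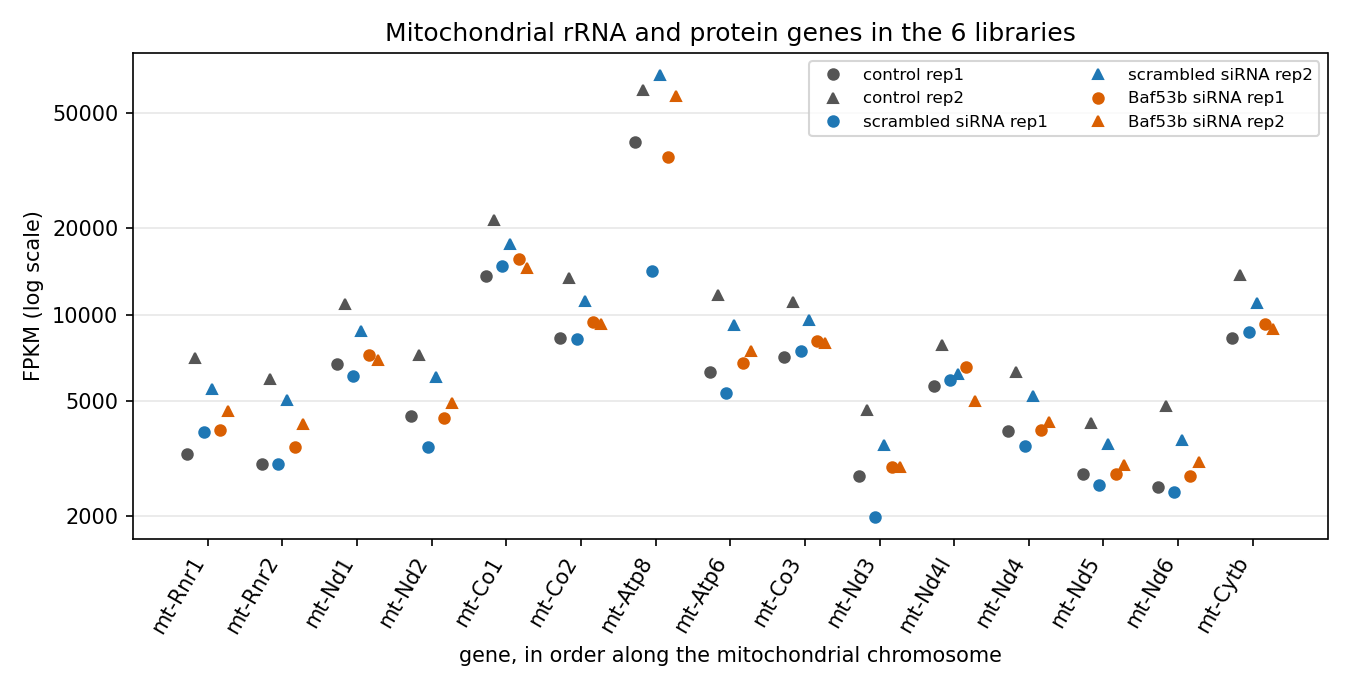
FPKM (log axis) of the 2 ribosomal RNA and 13 protein genes in the 6 libraries, with colour for the group, circles for replicate 1 and triangles for replicate 2. mt-Atp8 runs from 14151 to 67507 FPKM and lies above all other genes in 5 of 6 libraries, while the triangles of control and scrambled siRNA lie above their circles for every gene.

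Over all 15 genes the order of the levels was nearly fixed. The Spearman coefficient between libraries ran from 0.954 to 1.0 over the 15 pairs of libraries, given as a description, since the genes share length and sequence in every library. mt-Atp8 and mt-Co1 held the top 2 places, and mt-Co1 was above mt-Atp8 in scrambled siRNA replicate 1 alone. mt-Co2 and mt-Cytb followed at places 3 and 4, with group means of 10855 ± 3629 and 11037 ± 3842 FPKM in control (SD, n = 2) that did not differ beyond their spread. mt-Nd3, mt-Nd5 and mt-Nd6 shared places 13 to 15, and their means over the 6 libraries, 3144 ± 897, 3160 ± 610 and 3214 ± 904 FPKM (SD, n = 6), did not differ beyond their spread either. The order is that of the FPKM listed under the mitochondrial genes alone. Among these, mt-Co2 and mt-Nd3 have near-identical nuclear copies, described below, and mt-Cytb, mt-Nd5 and mt-Nd6 have none. The order with the copies counted in was not tested.

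Each FPKM came with a confidence interval made by the authors' software. For the 5 genes that overlap no other gene, the half-width of the interval was 0.333% to 2.81% of the FPKM. For the 10 that overlap another gene, including those that share 1 to 3 bases with a neighbour, it was 4.13% to 4.69%, whatever the level. The 2 sets did not overlap. These intervals cover the assignment of fragments within 1 library. In control they were far narrower than the spread between replicates: the SD of mt-Cytb was 3842 FPKM, and its half-width in control replicate 1 was 0.462%. This was not so in every group. In the pair labelled Baf53b siRNA, mt-Co3 had an SD of 94.8 FPKM at a mean of 8047 FPKM, with half-widths of 4.18% and 4.17%.

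If the half-width of the 5 genes without overlap is read as 2 standard errors of a fragment count, it gives the number of fragments behind each value. mt-Cytb then had between 130226 and 359948 fragments per library and mt-Nd3 between 5068 and 26187. For the 5 genes, counting error was small beside the replicate differences in control and scrambled siRNA. In the pair labelled Baf53b siRNA this did not hold for mt-Nd3. Its values of 2956 and 2967 FPKM lay closer together than its half-widths of 2.13% and 1.84%. Divided by FPKM, these fragment numbers fell on a straight line in gene length in every library, with a largest deviation of 0.27% to 1.3%. The slope gave 15.6 M to 28.3 M mapped fragments per library, lowest in scrambled siRNA replicate 1. The line did not start at length 0 but at a length that is here called the offset, below which a transcript adds no fragments on this reading. The offset was 191.5 and 132.1 bases in control, 186.7 and 163.6 with scrambled siRNA, and 193.2 and 165.6 in the libraries labelled Baf53b siRNA. It was smaller in replicate 2 than in replicate 1 of each group. Nuclear protein genes with 1 annotated transcript, 376 to 390 per library, were fitted too, with the line refitted repeatedly to those genes that lay close to it. It gave nearly the same offsets of 196.3 and 133.4, 185.7 and 164.7, and 195.3 and 167.5 bases. Of all these nuclear genes, 72.1% to 74.6% lay within 2% of that line. Genes far from the line had no part in these offsets.

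**Figure D2:**
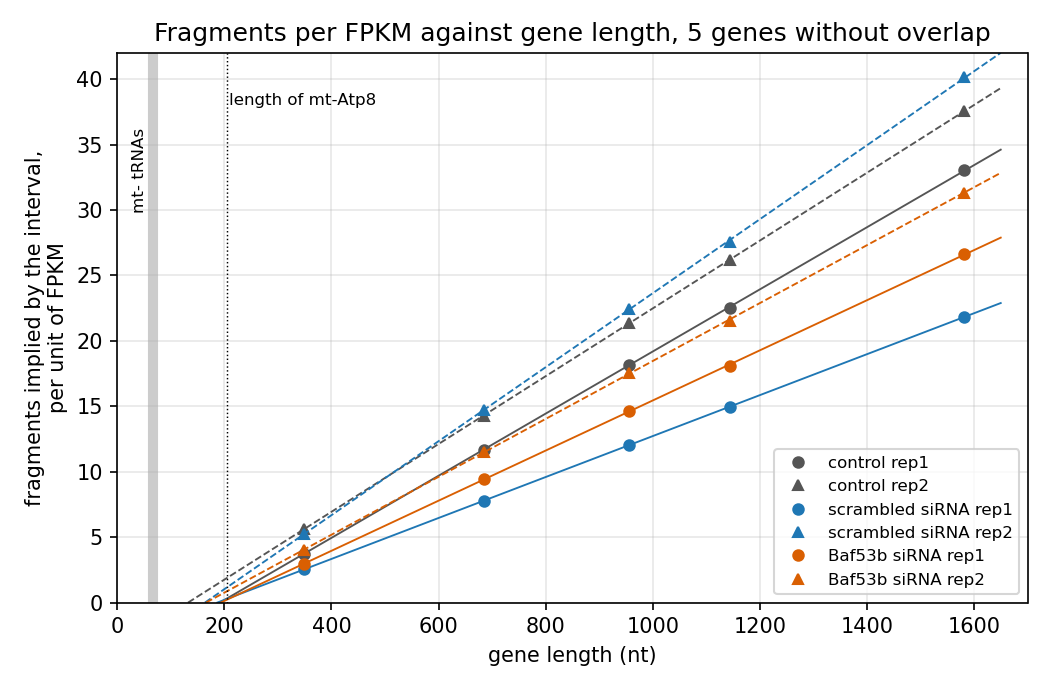
Fragments implied by the deposited interval, per unit of FPKM, against gene length in bases for mt-Nd3, mt-Co2, mt-Rnr1, mt-Cytb and mt-Rnr2; points are genes, lines the fit of each library (solid for replicate 1, dashed for replicate 2). The lines meet the axis at offsets from 132.1 to 193.2 bases, beside the 204 bases of mt-Atp8 (dotted line) and above the 59 to 75 bases of the transfer RNAs (grey band).

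The lengths of the members lay on both sides of that offset. Every transfer RNA, at no more than 75 bases, was shorter than the smallest offset of 132.1 bases, and every one was listed at 0. mt-Atp8, with 204 bases, was the protein gene closest to the offset, and its lowest value, in scrambled siRNA replicate 1, was in a library with an offset of 186.7 bases. The 2 other replicate 1 libraries had offsets at least as long and higher mt-Atp8 values. The part of the offset in the level and the spread of mt-Atp8 was not tested.

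Counted as implied fragments per M mapped fragments, which does not divide by the length of the gene itself, the 5 genes could be set side by side with their FPKM. mt-Cytb stood at 7881 and 13896 fragments per M in control, 8324 and 10674 with scrambled siRNA, and 8776 and 8676 in the libraries labelled Baf53b siRNA. The log2 differences between replicates of mt-Cytb on this scale were 0.82, 0.36 and -0.02, close to the 0.72, 0.33 and -0.06 in FPKM. mt-Nd3, with 348 bases the shortest of the 5, stood at 431 and 1011, 324 and 654, and 459 and 534 fragments per M. Its log2 differences between replicates were 1.23, 1.01 and 0.22 on this scale and 0.76, 0.83 and 0.005 in FPKM. The shorter gene thus differed more between the 2 scales than the longer one. That follows from the fitted line and its smaller replicate 2 offsets, and is not a separate observation.

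Some nuclear genes carry copies of mitochondrial sequence, and fragments from either place can map to both. A search of the GENCODE M21 transcripts found 20 nuclear transcripts with at least 200 bases aligned to a mitochondrial gene, and 19 of them were in the tables. Among these, 7 were at least 99% identical, and all 7 lie side by side on chromosome 1, minus strand, between 24611535 and 24616197. Gm28437 matches mt-Co3, Gm28661 mt-Co2, Gm10925 mt-Atp6, Gm10222 mt-Nd4l and Gm28439 part of mt-Nd4, all without a mismatch. Gm28438 differed from mt-Nd3 by T3C and Gm29216 from the last part of mt-Co1 by A1066T, with the mitochondrial base first and positions counted from the first base of the mitochondrial gene.

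The near-identical copies were listed at nearly the same level as the mitochondrial genes. Gm28661 stood at 8338 and 13490.0 FPKM in control, 8299.6 and 11208 with scrambled siRNA, and 9502 and 9294 in the libraries labelled Baf53b siRNA, which is 100.5% to 100.6% of mt-Co2. The 5 copies that span nearly the whole gene stood at 100.1% to 101.6% of their gene in every library. Gm28439, which covers bases 1 to 876 of the 1378 of mt-Nd4, stood at 47.8% to 67.4%, and Gm29216, which covers bases 1063 to 1545 of mt-Co1, at 58.7% to 64.5%. The other 12 copies, with an identity of 81.6% to 97.6%, stood at 0% to 3.39% of their gene. How fragments that map to several places were counted is not given in the sources used here, and the FPKM of the near-identical copies cannot be told apart from that of the mitochondrial genes.

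A stretch of mt-Co1 shows how little sequence separates the 2 kinds of copy. It was chosen as the 60 bases with the most mismatches to Gm13340 within the part of mt-Co1 that Gm29216 covers. The base at position 1066, where Gm29216 differs, lies outside it. The lines give 60 bases of mt-Co1 (chrM:6448-6507, plus strand), the same stretch in Gm29216 (chr1:24616071-24616130, minus strand) and in Gm13340 (chr2:22588468-22588527, minus strand), with capitals for the bases that differ from mt-Co1.
mt-Co1: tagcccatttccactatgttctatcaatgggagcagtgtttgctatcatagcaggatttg
Gm29216: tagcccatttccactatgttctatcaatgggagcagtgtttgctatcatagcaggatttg
Gm13340: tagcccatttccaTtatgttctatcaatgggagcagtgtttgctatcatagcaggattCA

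Gm29216 had no mismatch here and was listed at 8239 to 13606 FPKM. Gm13340 had 3 mismatches here and 37 over the 1545 bases of mt-Co1, and it was listed at 157 to 278 FPKM, 1.08% to 1.47% of mt-Co1.

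**Figure D3:**
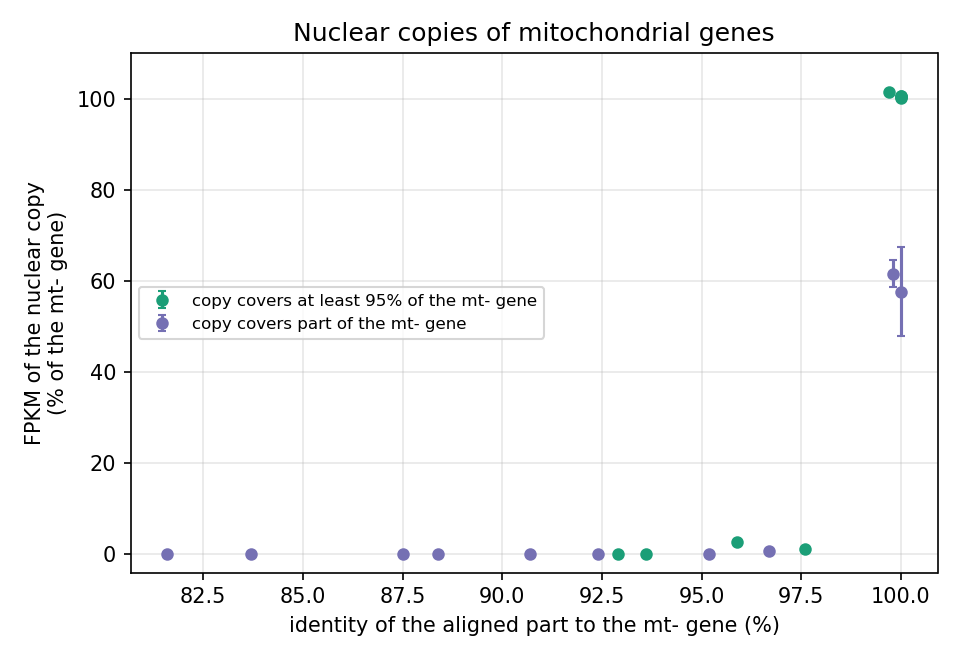
FPKM of 19 nuclear copies as a percentage of their mitochondrial gene (points at the middle of the range over the 6 libraries, bars from lowest to highest) against the identity of the aligned part. Copies up to 97.6% identity lie at 3.39% or less, and the 7 above 99% lie between 47.8% and 101.6%.

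The share of the summed FPKM (spike-in rows left out) that the mitochondrial genes held was 19.4% and 29.5% in control, 15.02% and 26.9% with scrambled siRNA, and 19.3% and 22.8% in the libraries labelled Baf53b siRNA. Averaged by group this was 24.5% ± 7.19, 21.0% ± 8.42 and 21.0% ± 2.44 (SD, n = 2 each), and the 3 groups overlapped. mt-Atp8 alone made up 33.5% and 31.5%, 15.4% and 38.9%, and 28.7% and 39.6% of the mitochondrial sum. With mt-Atp8 left out of both sums, a choice made after its values were seen, the share was 13.8% and 22.3%, 13.005% and 18.4%, and 14.6% and 15.1%. The pair labelled Baf53b siRNA then differed by 0.525 percentage points in place of 3.45, with mitochondrial sums of 87361 and 87179 FPKM. With the 7 near-identical nuclear copies added, the share was between 21.6% and 39.9% over the 6 libraries.

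**Figure D4:**
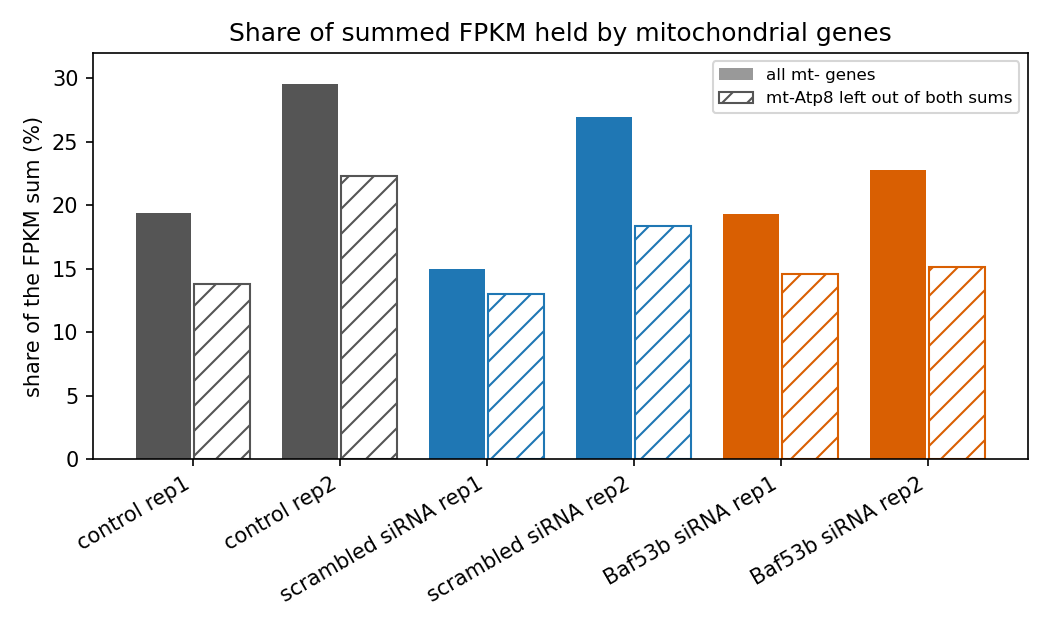
Share of the FPKM sum held by the mitochondrial genes in each library, in percent (filled bars), and with mt-Atp8 left out of both sums (hatched bars). Replicate 2 is higher than replicate 1 in each group, by 10.2, 11.9 and 3.45 percentage points with mt-Atp8 and by 8.54, 5.38 and 0.525 without it.

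The comparison of the libraries labelled Baf53b siRNA with scrambled siRNA asks for an effect of the siRNA's sequence. None of the 15 genes was called (limma, adjusted p = 1 for each, 0 at an unadjusted p under 0.05), against 0.123% of all 14664 genes tested in either direction and 3.03% at an unadjusted p under 0.05. The log2 differences had a median of -0.05, against 0.003 over all genes tested, with 4 genes higher and 11 lower. They ran from -0.11 in mt-Rnr1 (SE 0.40) to 0.54 in mt-Atp8 (SE 0.76, 95% interval -1.27 to 2.34). In no gene were the 2 groups without overlap, as they were in 13.1% of all genes for higher and 9% for lower values. The direction turned with the replicate number: within replicate 1 all 15 genes were higher in the library labelled Baf53b siRNA, by 0.02 (mt-Rnr1) to 1.31 (mt-Atp8), and within replicate 2 all 15 were lower, by -0.24 to -0.34. For mt-Cytb the values were 0.09 and -0.30.

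Against control, all 15 genes were lower in the libraries labelled Baf53b siRNA, and none was called (limma, adjusted p = 1 for each, 0 at an unadjusted p under 0.05), against 1.23% of all genes in either direction and 5.02% at an unadjusted p under 0.05. No gene's libraries were without overlap between the groups, as 16.7% of all genes were for higher and 7.11% for lower values. The median log2 difference was -0.23, against 0.04 over all genes, with a range from -0.29 in mt-Nd2 (SE 0.37) to -0.12 in mt-Atp8 (SE 0.76). For mt-Cytb the difference was -0.23 with a 95% interval of -1.06 to 0.60, so neither a fall nor a rise of that size could be told from none with 2 libraries a group. Without control replicate 2, the highest library for 14 of the 15 genes, the median was 0.14. Other lists differed in the same comparison: besides the microglia markers, 30 of 30 cytosolic ribosomal protein genes (median 0.24, none called) and 8 of 8 nuclear-retained RNAs (median 0.49, none called) were higher. Of 10 astrocyte markers, 9 were higher and 2 called, Gfap (log2 difference 3.23, adjusted p = 0.000553 by limma) and Aqp4 (0.80, adjusted p = 0.0446). Gfap, an intermediate filament of astrocytes, was also called against scrambled siRNA (1.89, adjusted p = 0.0111 by limma). The part of these lists in the mitochondrial values was not tested.

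The comparison of scrambled siRNA with control, in which neither group received Baf53b siRNA by its label, shares the control libraries with the one before. Again all 15 genes were lower and none was called (limma, adjusted p = 1 for each, 0 at an unadjusted p under 0.05), with 0% of all genes called and 2.22% at an unadjusted p under 0.05. The median log2 difference was -0.19, against 0.04 over all genes, and the values ran from -0.66 in mt-Atp8 (SE 0.76) to -0.05 in mt-Rnr1 (SE 0.40). mt-Nd3 followed mt-Atp8 with -0.43 (SE 0.37). The 30 cytosolic ribosomal protein genes were again all higher (median 0.20, none called). The groups overlapped in all 15 mitochondrial genes, and were without overlap in 12.7% of all genes for higher and 5.57% for lower values. The median was 0.15 without control replicate 2 and 0.07 without scrambled siRNA replicate 1.

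Replicate 2 was compared with replicate 1 over the 3 groups, with the group in the fit. All 15 genes were higher in replicate 2 on average, with a median log2 difference of 0.45 against -0.10 over all genes tested. Under quantile normalization, which gives every library the same set of values, the median was 0.0003. None was called (limma, smallest adjusted p = 0.118, in mt-Rnr2), against 0.327% of all genes in either direction, 0.0273% for higher and 0.3% for lower values. At an unadjusted p under 0.05 stood 5 of the 15, mt-Rnr1, mt-Rnr2, mt-Nd2, mt-Nd3 and mt-Nd6, beside 26.7% of all genes in either direction and 4.19% for higher values. In 9 of the 15 (mt-Rnr1, mt-Rnr2, mt-Nd2, mt-Atp8, mt-Atp6, mt-Nd3, mt-Nd4, mt-Nd5 and mt-Nd6) every replicate 2 library lay above every replicate 1 library, as did 6.94% of all genes, while 28% of all genes lay lower without overlap. The 15 genes share one chromosome and its precursors, so they are not 15 independent observations.

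By gene, the difference was 0.66 in mt-Rnr2 (SE 0.20) and 0.61 in mt-Rnr1 (SE 0.23), where mean FPKM went from 3184 ± 262 to 5071 ± 901 and from 3721 ± 383 to 5746 ± 1232 (SD, n = 3). It was 1.18 in mt-Atp8 with an SE of 0.55, 0.56 in mt-Nd6 (SE 0.19) and 0.27 in mt-Co1 (SE 0.31). The smallest was 0.05 in mt-Nd4l (SE 0.24). The 3 groups were not alike in this difference. In control it ran from 0.47 in mt-Nd4l to 1.11 in mt-Rnr1, and in scrambled siRNA from 0.06 in mt-Nd4l to 2.25 in mt-Atp8, with all 15 genes higher in replicate 2 in both. In the libraries labelled Baf53b siRNA it ran from -0.38 in mt-Nd4l to 0.70 in mt-Atp8, with 9 genes higher and 6 lower. With 1 pair per group, the difference between the groups could not be tested.

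**Figure D5:**
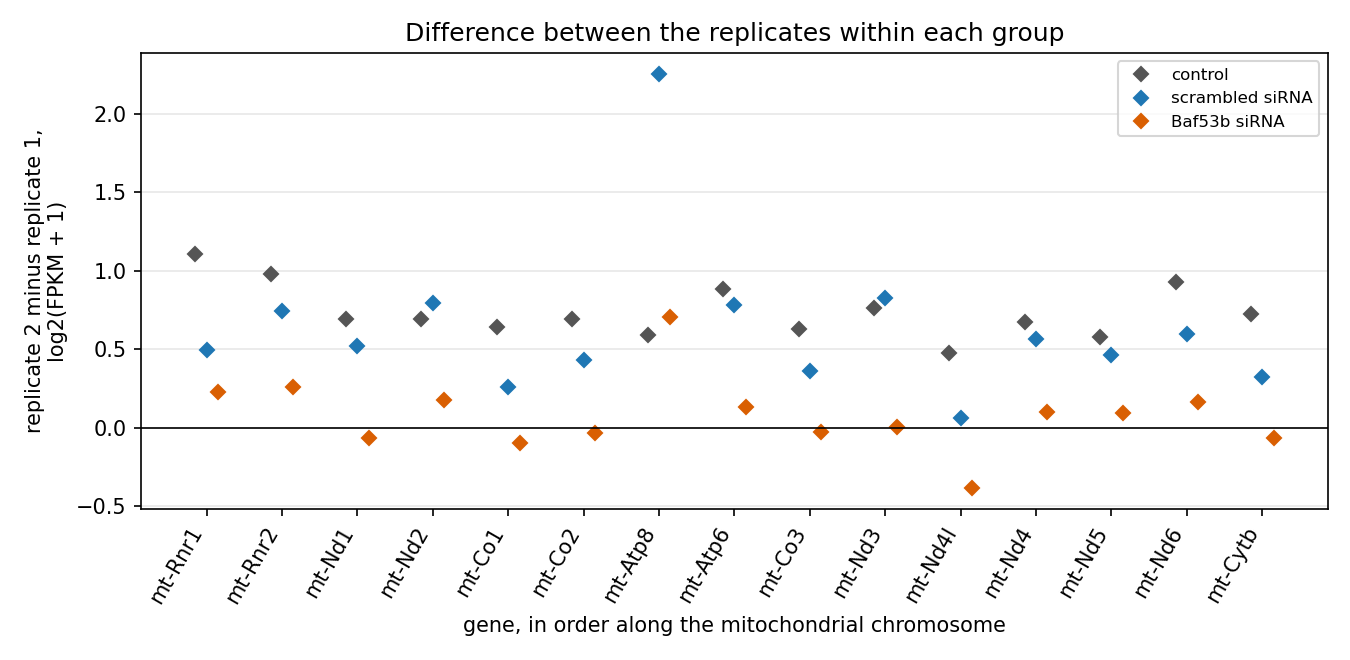
Replicate 2 minus replicate 1 in log2(FPKM + 1) for each gene, with 1 diamond per group. Control and scrambled siRNA lie above 0 for all 15 genes, and the diamonds of the libraries labelled Baf53b siRNA lie between -0.38 and 0.70.

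Within the mitochondrial sum, leaving out mt-Atp8, the make-up also differed by replicate number in 6 of 14 genes without overlap. The 14 parts add up to the same total, so they are not independent, and this measure has no share over all genes to set beside the count. The length offset given above was smaller in replicate 2 of each group, and its part in these differences was not tested. mt-Rnr1 and mt-Rnr2 together held 8.001% and 10.02% of that sum in control, 8.96% and 9.98% with scrambled siRNA, and 8.54% and 10.1% in the libraries labelled Baf53b siRNA. mt-Nd4l was a smaller part in replicate 2, from 7.16%, 7.65% and 7.51% in the replicate 1 libraries to 6.02%, 5.85% and 5.76% in replicate 2, a mean ratio of 0.790. mt-Co1 was also a smaller part in replicate 2, with 17.2%, 18.9% and 17.8% in replicate 1 and 16.3%, 16.6% and 16.7% in replicate 2. mt-Atp6 and mt-Nd6 were a larger part in each replicate 2 library. mt-Co2 was the steadiest, between 10.3% and 10.8% of the sum in all 6 libraries.

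The nuclear partners of these proteins were read from lists of their complexes. In replicate 2 against replicate 1, 21 of 75 nuclear subunits of oxidative phosphorylation were higher and 54 lower. Their median log2 difference was -0.13 and none was called. Over all genes tested the median was -0.10 and 0.327% were called, and the mitochondrial median was 0.45. Of the same 75, 63 were higher and 12 lower in scrambled siRNA against control (median 0.08), where all 15 mitochondrial genes were lower. In the libraries labelled Baf53b siRNA 46 were higher and 29 lower against control (median 0.05). Against scrambled siRNA 10 were higher and 65 lower (median -0.07), and none was called in any of these comparisons. The medians over all genes tested were 0.04 in both comparisons with control and 0.003 against scrambled siRNA. Of all genes, 1.23% were called in Baf53b siRNA minus control, 0.123% in Baf53b siRNA minus scrambled siRNA and 0% in scrambled siRNA minus control. In complex I the summed FPKM of the 7 mitochondrial genes was 8.01 and 11.96 times that of 37 nuclear subunit genes in control, 6.24 and 9.88 times in scrambled siRNA, and 7.50 and 8.75 times in the libraries labelled Baf53b siRNA. In complex III the ratio was 7.12 and 11.4, 6.15 and 8.81, and 6.82 and 7.88. In complex IV, where 6 of 9 nuclear subunits were also higher in replicate 2 (median 0.21), it was 13.8 and 17.3, 11.97 and 15.2, and 13.6 and 13.9. The ratio of complex V depended on mt-Atp8: with it, 15.2 and 22.8, 5.57 and 25.1, and 12.4 and 23.0, and without it 2.09 and 3.72, 1.53 and 3.02, and 2.01 and 2.66. In all 4 complexes with mitochondrial subunits the ratio was higher in replicate 2 of every group. In the pair labelled Baf53b siRNA, however, the mitochondrial sums of complexes I, III and IV were lower in replicate 2, as were the nuclear sums. For complex I these were 30690.2 and 30225.5 FPKM for the mitochondrial genes and 4090 and 3454 FPKM for the nuclear ones.

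The nuclear subunits of smallest p mostly had differences of the opposite sign. Most genes of small p did so too: of 3914 genes at an unadjusted p under 0.05 (limma), 614 were higher in replicate 2. Ndufs7, a complex I subunit, stood at 66.5 and 47.3 FPKM in control, 73.2 and 46.4 with scrambled siRNA, and 76.2 and 47.7 in the libraries labelled Baf53b siRNA (log2 difference -0.60, SE 0.07, adjusted p = 0.0501 by limma). Cox7c, a small subunit of complex IV, stood at 293 and 200.3, 342 and 221, and 317 and 211 FPKM (-0.59, adjusted p = 0.0501 by limma). In both genes every replicate 2 library lay below every replicate 1 library, as in 28% of all genes tested, and neither passed the threshold of 0.05. Cox5a, also of complex IV, had a difference of 0.32 (adjusted p = 0.077 by limma).

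The nuclear genes that copy, transcribe, process and translate the mitochondrial genome gave no call in any of the 4 comparisons (limma, 0 of 18 for transcription and replication, 0 of 24 for RNA processing and stability, 0 of 17 for aminoacyl-tRNA synthetases and 0 of 80 for ribosomal proteins of the mitochondrion). Few genes were called at all. The share over all genes was 0.123% in Baf53b siRNA minus scrambled siRNA and 1.23% in Baf53b siRNA minus control. It was 0% in scrambled siRNA minus control and 0.327% between replicates. Tfam, which packages mitochondrial DNA and starts its transcription, stood at 20.1 and 32.02 FPKM in control, 18.0 and 23.6 with scrambled siRNA, and 18.8 and 28.3 in the libraries labelled Baf53b siRNA, with a log2 difference between replicates of 0.53 (adjusted p = 0.0557 by limma). Polrmt, the mitochondrial RNA polymerase, stood at 6.88 and 4.65, 7.52 and 6.01, and 7.26 and 5.22 FPKM (-0.39, adjusted p = 0.0794 by limma). Each replicate 2 library was above each replicate 1 library for Tfam, as in 6.94% of all genes tested. For Polrmt each was below, as in 28% of all genes. These 2 genes had the smallest p of their list. In replicate 2 against replicate 1, 8 transcription and replication genes were higher and 10 lower (median -0.01), and 19 ribosomal protein genes were higher and 61 lower (median -0.13). Genes of mitochondrial mass, such as import and matrix enzymes, had 5 of 20 higher (median -0.10). The median over all genes tested was -0.10.

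Other lists that differ between replicate numbers stand beside these values. Of 30 cytosolic ribosomal protein genes, 5 were higher and 25 lower in replicate 2, with a median of -0.26 and 1 called (Rps14). Over all genes tested the median was -0.10, and 0.3% were called lower. Of 8 nuclear-retained RNAs tested, 3 were higher and 5 lower, with a median of -0.23 and none called. The pair of smallest p, Gm42418 (-0.71, adjusted p = 0.0582 by limma) and Mirg (-0.45, adjusted p = 0.2), was lower in replicate 2 of each group. The part of any of these in the mitochondrial difference was not tested.

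Among 7029 genes with a mean of at least 10 FPKM, those whose pattern over the 6 libraries was most like the summed log2 level of the 15 genes were Gm10925 (Pearson r 0.999), which is a near-identical copy, Bcap29 (0.995), Nefm (0.995), Rsl1d1 (0.994) and Hdac2 (0.992). Nefm, a neurofilament gene, stood at 29.0 and 43.5 FPKM in control, 27.6 and 38.2 with scrambled siRNA, and 30.9 and 31.8 in the libraries labelled Baf53b siRNA, the same order of libraries as in mt-Nd1 apart from the last pair. The most opposite were Stk16 (-0.997), Cnot10 (-0.997), Nr2c2 (-0.996), Slc17a5 (-0.996) and Rab10os (-0.994). With 6 points that share depth and scaling, and 186 genes above 0.9 and 679 below -0.9, these coefficients are a description of the libraries.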

How the data were processed

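RNA of the lateral amygdala was measured in 6 libraries, 2 in each of 3 groups. Per the labels' protocols, oligo-dT selection, a stranded kit and paired-end sequencing were used. The submitters' processing notes name bcl2fastq 2.19.1.403, TopHat2 2.1.1, Cufflinks 2.2.1 and build mm10. The annotation release, the settings and the treatment of multiply mapped fragments were not given in the sources used here. Per the file headers, the authors deposited FPKM per gene with lower and upper bounds of its confidence interval and a status. FPKM is relative to the library's fragments, so a gene that takes many lowers the others.

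The 92 spike-in rows were left out, several rows of 1 gene ID (48 IDs) were summed, and 4 genes with a failed estimate were dropped. Genes with a mean of at least 1 FPKM were tested on log2(FPKM + 1), with 353 small RNA genes left out, which left 14664. In limma 3.58.1 (R 4.3.3), with eBayes and its trend option, group means were fitted to all 6 libraries (3 residual degrees of freedom, prior 3.99), and the replicate number was fitted beside the group (2 residual degrees of freedom). Tests were two-sided with Benjamini-Hochberg adjustment over all genes, called at 0.05. They were tried on simulated data with independent noise in each library, which lack the pairing of same-numbered libraries described below. Fold changes on this scale understate those of low genes. Nothing in the labels says that replicates came from separate animals, so p-values measure the spread between libraries, which may be technical. Depth was read from the interval half-width, taken as 2 standard errors, and covers counting error only. The nuclear genes set beside it had 1 transcript of 500 to 4000 bases, at least 5 FPKM and at least 100 fragments. Their line was refitted repeatedly, each time to the genes lying close to it. Copies were found with blastn 2.17.0 against GENCODE M21 transcripts.

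Deviations of same-numbered libraries correlated over genes at r = 0.39 (control and scrambled siRNA), 0.183 (control and Baf53b siRNA) and 0.359 (scrambled siRNA and Baf53b siRNA), all above 0.1, a pairing seen in the data and not stated in the labels. The group comparisons as printed were fitted without it, and the fit with the replicate number as a block was an alternative. All 15 genes above 0 were named, and in each other list the 2 genes of smallest p served as examples. The members and lists were chosen with earlier results of these data known. Alternatives were another pseudocount, filter, scaling and normalization, robust eBayes, the replicate block, only the groups compared, spike-ins kept, protein genes alone, and each library left out.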

Additional observations from a re-analysis of the deposited data

Results flagged for a closer look

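The synthetic spike-in rows, which the labels do not mention and no comparison used, held more FPKM in both siRNA groups than in control. Their sum was 117 and 125 FPKM in the control libraries, 207.2 and 656.2 with scrambled siRNA, and 4825 and 811.4 in the libraries labelled Baf53b siRNA. They were thus above the control level in 4 of 4 siRNA libraries, which makes up at most 0.755% of any library's sum. Keeping them in the sum changed the mitochondrial share of the highest library from 19.3% to 19.2%.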

How the results depend on the processing

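The number of mitochondrial genes called was 0 under every alternative run, in all 4 comparisons. Quantile normalization, which forces the same values onto the top ranks of each library, brought the median log2 difference between replicates from 0.45 to 0.0003. Scaling to the FPKM sum without mitochondrial genes gave 0.56 and upper quartile scaling 0.57. Leaving out 1 library at a time gave medians of 0.33 to 0.62 between replicates, -0.62 to 0.14 for Baf53b siRNA minus control, -0.30 to 0.21 for Baf53b siRNA minus scrambled siRNA and -0.57 to 0.15 for scrambled siRNA minus control. The sign turned without control replicate 2 in both comparisons with control, without scrambled siRNA replicate 1 in scrambled siRNA minus control (0.07), and without scrambled siRNA replicate 2 in Baf53b siRNA minus scrambled siRNA (0.21). The share differed by -8.51 to 1.67, -5.90 to 6.01, -9.43 to 2.48 and, between replicates, 6.81 to 11.0 percentage points. Between replicates it was 8.51 points with mt-Atp8 and 4.81 without. The replicate block called 0 mitochondrial genes. With it, the count over all genes went from 18 to 13 for Baf53b siRNA minus scrambled siRNA. The count went from 181 to 188 for Baf53b siRNA minus control and from 0 to 0 for scrambled siRNA minus control. Without the block in the replicate comparison the count over all genes went from 48 to 1425 and remained 0 in mitochondrial genes. Counts over all genes ran from 1 to 30 for Baf53b siRNA minus scrambled siRNA and from 4 to 188 for Baf53b siRNA minus control. Over the same alternatives they ran from 0 to 13 for scrambled siRNA minus control and from 0 to 1425 between replicates. Implied fragment numbers exist for 5 genes, so the depth behind the other 10, mt-Atp8 among them, is unknown.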
